A study of Mus musculus with 4 samples.

Results

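The genes described here encode the main parts of the basement membrane: collagen IV (Col4a1 and Col4a2), the associated collagens Col15a1 and Col18a1, the laminin chains Lama2, Lama4, Lamb1 and Lamc1, nidogen-1 (Nid1) and perlecan (Hspg2). They were taken by symbol from the list of 32285 features, and all 10 were present and above the low-value filter. RNA was counted over a grid of spots on 4 fresh frozen tissue sections, each cut from the tibial muscle of 6-8 week old Nse-Bmp4 animals (C57BL/6), and a spot is a small area that can hold several cells. The groups were uninjured muscle (day 0) and injured muscle collected 1, 3 and 7 days after cardiotoxin injury, with 1 section each. Every group, the uninjured muscle included, carried the Bmp4 transgene, which is driven by the rat promoter of neuron-specific enolase, and no section without the transgene was used here. The labels give 3 mixed tibial muscles per group, but not the way these became a single section. With 1 section a day there is no spread between animals, so no test was made. The intervals printed are exact 95% intervals and cover counting error only.

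A basement membrane is a thin sheet of matrix that wraps each muscle fibre, each capillary and each peripheral nerve. Laminin trimers, built from an alpha, a beta and a gamma chain, assemble on the cell surface, a collagen IV network gives the sheet its strength, and nidogen and perlecan tie the networks together. After muscle injury the emptied sheath of a dead fibre persists as a tube in which satellite cells rebuild the fibre, and cartilage cells surround themselves with a pericellular matrix rich in perlecan.

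The sections held 2107, 2667, 3029 and 3032 spots at days 0, 1, 3 and 7, with 43871586, 16777832, 56113066 and 41832640 UMIs (unique molecular identifiers, 1 per captured RNA molecule). Median UMIs per spot were 21029, 6322, 16087 and 12119.5, so the day 1 section was the shallowest. Of 4078 barcodes, 3333 occurred in over 1 section. These barcodes mark positions on the capture slide, so a shared barcode is not a shared spot of tissue. Genes of the adult myofibre made up 27.5%, 15%, 9.18% and 16.1% of UMIs at days 0, 1, 3 and 7, and the other genes take a larger share of the total wherever these fall. Levels are given as CPM (counts per 1e6), the UMIs of a gene scaled to the same section total. In these sections fewer cells of a type and less RNA per cell cannot be told apart.

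Summed over the 10 genes, the level was 1782 CPM in uninjured muscle and 709, 787 and 1912 CPM on days 1, 3 and 7. At day 1, 9 of the 10 genes were at least 2-fold lower than at day 0, while 8.11% of all 10199 genes tested were. Without the 681 spots of the region led by Mss51 and Ctxn3 (regions are described further on), the count was 6, since Col4a1, Col4a2 and Lama4 were then at 0.508, 0.539 and 0.505 of day 0. The share of all genes tested was not computed without that region, so this count has none to be set beside. In the whole day 1 section no member was at least 2-fold higher, while 15.6% of all genes tested were. The members' median log2 ratio to day 0 was -1.27 and that of all genes tested 0.20, a difference of -1.47 that no rescaling of the section totals can move. At day 3, 5 members were at least 2-fold lower, against 5.22% of all genes tested, and again 0 were at least 2-fold higher, against 29.3%. The median log2 ratio was -1.06, which was -1.61 relative to the median of all genes tested. At day 7 none was at least 2-fold lower, against 0.951% of all genes tested, and 2, Hspg2 and Col18a1, were at least 2-fold higher, against 23.8%. The members' median was then 0.09, still -0.48 relative to the 0.57 of all genes tested. With all 3 other scalings tried this day 7 median lay below 0 and Hspg2 was under 2-fold, whereas Col18a1 stayed past 2-fold. From day 3 to day 7 all 10 genes were higher, with a median log2 ratio of 1.19 beside 0.01 for all genes tested.

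**Figure D1:**
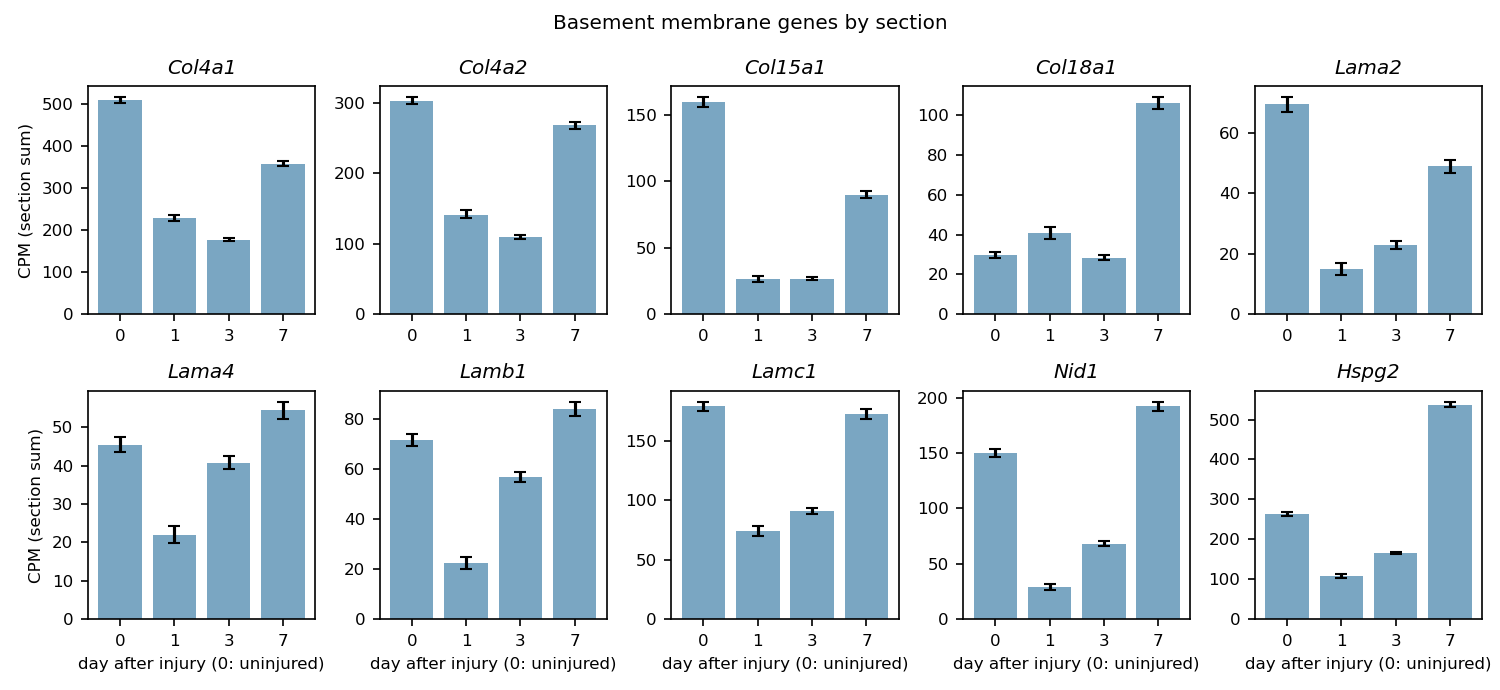
Bars give the level of each gene in CPM (UMIs of the gene scaled to the section total) in the single section of each day (x axis, days after injury), each panel with its own y axis from 0, and error bars are exact 95% Poisson intervals for counting error. Collagen IV was lowest at day 3, and the laminin genes, Nid1 and Hspg2 were lowest at day 1. Col18a1, Lama4, Lamb1, Nid1 and Hspg2 were highest at day 7.

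Collagen IV chains form the covalent network of the sheet, and its common protomer holds both chains. Col4a1 measured 509, 229, 176 and 358 CPM on days 0, 1, 3 and 7. Col4a2 measured 303, 141, 110 and 268 CPM. Both were highest in uninjured muscle and lowest at day 3, when Col4a1 was 2.89-fold lower (95% interval 2.82 to 2.96) and Col4a2 2.76-fold lower (2.67 to 2.84) than at day 0. From day 1 to day 3 both still went down, with log2 ratios of -0.38 and -0.36, while Lama2, Lama4, Lamb1, Nid1 and Hspg2 went up by more than the median of all genes tested (0.35). The ratio of Lamc1 in that step, 0.30, was below this median. Intervals of neighbouring days did not overlap for either gene.

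The collagen IV genes lie next to each other on mouse chromosome 8, read in opposite directions with spans that overlap by 85 bases (GRCm38.p6, the assembly also called mm10, with Col4a1 at chr8:11198423-11312889 and Col4a2 at chr8:11312805-11449287). The starts used for their RefSeq promoter sequences lie within that overlap, with 20 bases between them. Col4a1 took 62.7%, 61.8% and 61.6% of the UMIs of the pair on days 0, 1 and 3. By day 7 its share was 57.2% (56.6% to 57.8%), below the intervals of the other days. The pair therefore kept nearly the same proportion while its level went down, and a different one at day 7, when Col4a2 was closer to its uninjured level (log2 ratio -0.18) than Col4a1 (-0.51).

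Col15a1 and Col18a1 encode collagens XV and XVIII, 2 related basement membrane collagens whose C-terminal parts can be cleaved off, endostatin being the fragment of collagen XVIII. Col15a1 measured 160, 26.5, 26.8 and 90.03 CPM on days 0, 1, 3 and 7. It was 6.03-fold lower at day 1 (5.48 to 6.65) and 5.96-fold lower at day 3 (5.64 to 6.31), the furthest below day 0 of the 10 genes on both days. Only 0.716% of all genes tested had a smaller ratio at day 1 and 0.284% at day 3. Days 1 and 3 had overlapping intervals, and at day 7 the gene was still 1.78-fold below the uninjured level.

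Col18a1 measured 29.8, 40.7, 28.4 and 106 CPM on the same days. It was the only member above its uninjured level at day 1, with a log2 ratio of 0.45 (0.31 to 0.58), did not differ from it beyond counting error at day 3 on the CPM scale (-0.07, interval -0.18 to 0.04) and was 3.56-fold higher at day 7 (3.35 to 3.79). With the 3 other scalings its day 3 ratio was -0.62, -0.63 and -0.50, below day 0 beyond counting error. At day 1 the median log2 ratio of all genes tested was 0.20, and 63.9% of them had a smaller ratio than Col18a1. Col15a1 took 84.3%, 39.5%, 48.6% and 45.9% of the UMIs of the pair on days 0, 1, 3 and 7. Its share was thus lower in all 3 injured sections than in the uninjured one.

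The alpha chain sets where a laminin is found: the alpha-2 chain (Lama2) is that of the laminin around muscle fibres, whose loss causes a congenital muscular dystrophy, and the alpha-4 chain (Lama4) is common around vessels and in developing muscle. Lama2 measured 69.3, 14.8, 22.9 and 48.9 CPM on days 0, 1, 3 and 7. Its lowest value, at day 1, rested on 249 UMIs, the fewest of any member in any section. It was 4.67-fold below day 0 on day 1 (4.10 to 5.34), 3.03-fold on day 3 and 1.42-fold on day 7. Lama4 measured 45.5, 22.0, 40.7 and 54.4 CPM. It was 2.07-fold lower at day 1 (1.85 to 2.32), nearer to the uninjured level at day 3 (log2 ratio -0.16 on the CPM scale) and above it at day 7 (0.26, interval 0.17 to 0.34), although below it under the other scalings. Lama2 therefore made up 60.4% of the UMIs of the 2 alpha chains in uninjured muscle and 40.3%, 36.0% and 47.3% on the injured days. Against Lama5, which encodes the alpha-5 chain of mature vessels and synapses, Lama4 made up 64.5%, 48.5%, 57.9% and 59.0% of the UMIs on days 0, 1, 3 and 7.

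Lamb1 and Lamc1 encode the beta-1 and gamma-1 chains, which either alpha chain can join. Lamb1 measured 71.6, 22.4, 56.9 and 84.2 CPM at days 0, 1, 3 and 7, and Lamc1 179, 74.3, 91.3 and 173 CPM. Lamb1 was 3.20-fold lower at day 1 (2.87 to 3.57) and Lamc1 2.41-fold lower (2.27 to 2.56). By day 3 they had parted: Lamb1 had a log2 ratio of -0.33 to day 0 and Lamc1 one of -0.97. Lamb1 held 28.6%, 23.2%, 38.4% and 32.8% of the UMIs of the pair on days 0, 1, 3 and 7. At day 7 Lamc1 was near its uninjured level (-0.05, interval -0.10 to -0.01), and Lamb1 was above it (0.23, interval 0.16 to 0.30), although below it under the 3 other scalings. Against Lamb2, which encodes the beta-2 chain of synaptic and vascular laminins, the share of Lamb1 was 35.1%, 26.2%, 39.2% and 34.3%.

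Nid1 encodes nidogen-1, which bridges the laminin gamma-1 chain and collagen IV. It measured 150, 28.8, 68.0 and 192 CPM on days 0, 1, 3 and 7. The day 1 level was 5.21-fold lower than in uninjured muscle (4.75 to 5.73), next to Col15a1 the furthest below. The day 3 level had a log2 ratio of 1.24 to that of day 1, and the day 7 level stood 0.35 above day 0 (0.31 to 0.40), or below it under 2 of the 3 other scalings. Nid2, the gene of the related nidogen-2, had 26.6, 7.15, 17.0 and 47.1 CPM. Nid1 made up 85.0% of the UMIs of the pair in uninjured muscle and 80.1%, 80.0% and 80.3% on the injured days.

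Hspg2 encodes perlecan, the large heparan sulfate proteoglycan that links the networks and holds growth factors. It measured 264, 109, 165 and 538 CPM on days 0, 1, 3 and 7. The day 1 section was 2.42-fold below day 0 (2.31 to 2.55), the day 3 section 1.60-fold below and the day 7 section 2.04-fold above (1.99 to 2.08). The order of the sections was day 1, 3, 0, 7, and no intervals overlapped. Its share with Agrn, the gene of agrin, another heparan sulfate proteoglycan and the organizer of the neuromuscular synapse, lay between 91.6% and 93.2% on all days. Agrn itself measured 21.1, 10.0, 12.0 and 42.2 CPM, in the same order of the sections.

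**Figure D2:**
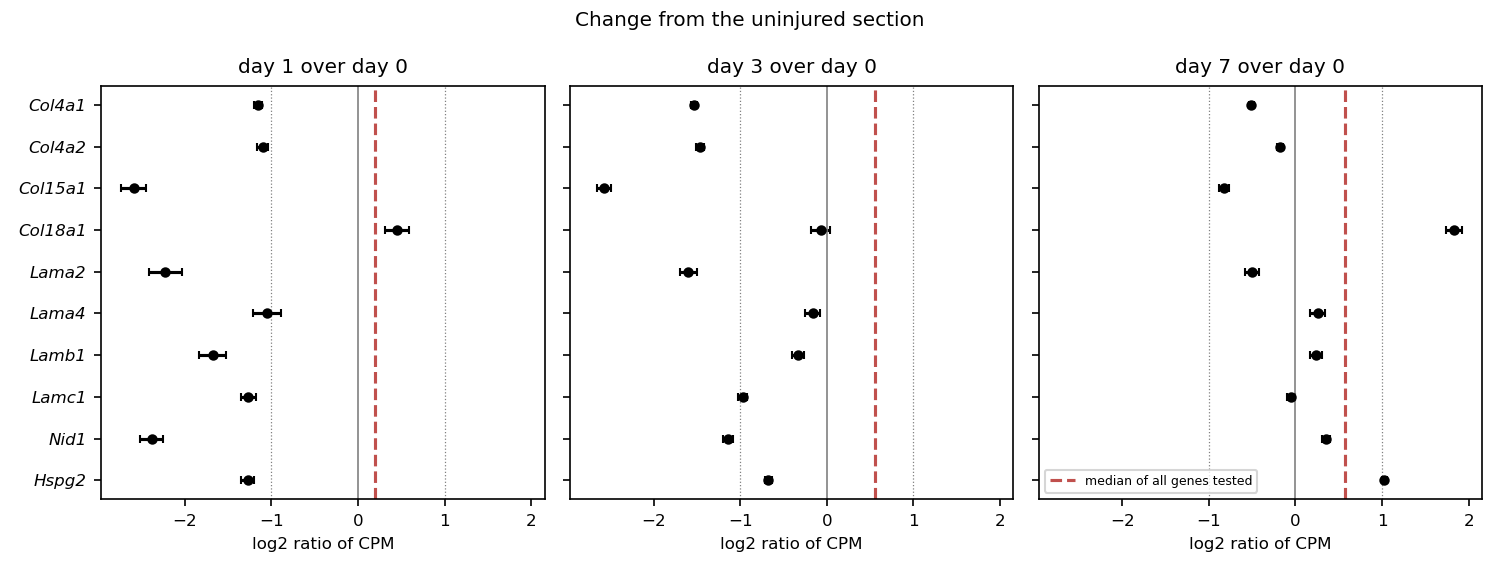
Points give the log2 ratio of CPM to day 0 (x axis) for each gene at days 1, 3 and 7, with exact 95% intervals for counting error, dotted lines mark 2-fold and the dashed line marks the median of all genes tested in that comparison. At day 1, 9 of 10 genes lay beyond the lower dotted line, and at day 7 only Hspg2 and Col18a1 lay beyond the upper one.

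Hspg2 and Col18a1 were the members highest above uninjured muscle at day 7, and the sequence before their starts is shown for that reason. Both stretches are RefSeq sequence of GRCm38.p6, on the strand of the gene, end before the annotated gene and overlap no other RefSeq gene. Capitals mark the GC box (GGGCGG, or CCGCCC on the other strand).
Hspg2, chr4:137468553-137468750, plus strand: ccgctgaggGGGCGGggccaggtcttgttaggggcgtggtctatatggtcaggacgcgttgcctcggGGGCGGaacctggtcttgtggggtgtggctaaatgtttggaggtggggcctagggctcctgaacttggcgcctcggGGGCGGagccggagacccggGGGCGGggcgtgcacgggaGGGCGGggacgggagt
Col18a1, chr10:77166531-77166780, minus strand: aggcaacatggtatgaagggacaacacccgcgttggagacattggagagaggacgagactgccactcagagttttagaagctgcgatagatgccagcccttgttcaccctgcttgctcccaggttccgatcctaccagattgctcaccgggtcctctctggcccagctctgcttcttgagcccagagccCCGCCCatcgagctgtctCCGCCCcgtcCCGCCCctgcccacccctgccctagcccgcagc
Hspg2 holds 5 GC boxes and Col18a1 3. In the 250 bases before the start, on both strands, 32.7% of all 32851 promoters in the table held at least 1. The table had an entry for 8 of the 10 genes. Col4a2 and Lamb1 held 2 and Nid1 1, while Col4a1, Col15a1, Lama2 and the second, inner start of Col18a1 held 0. The TATA sequence TATAAA was in none of the members' windows and in 12.4% of all. A GC box is the sequence that the general factor Sp1 is known to bind, and these matches describe the letters only. The UMIs come from the 3′ ends of the transcripts, so they do not show which start of Col18a1 was used.

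**Figure D3:**
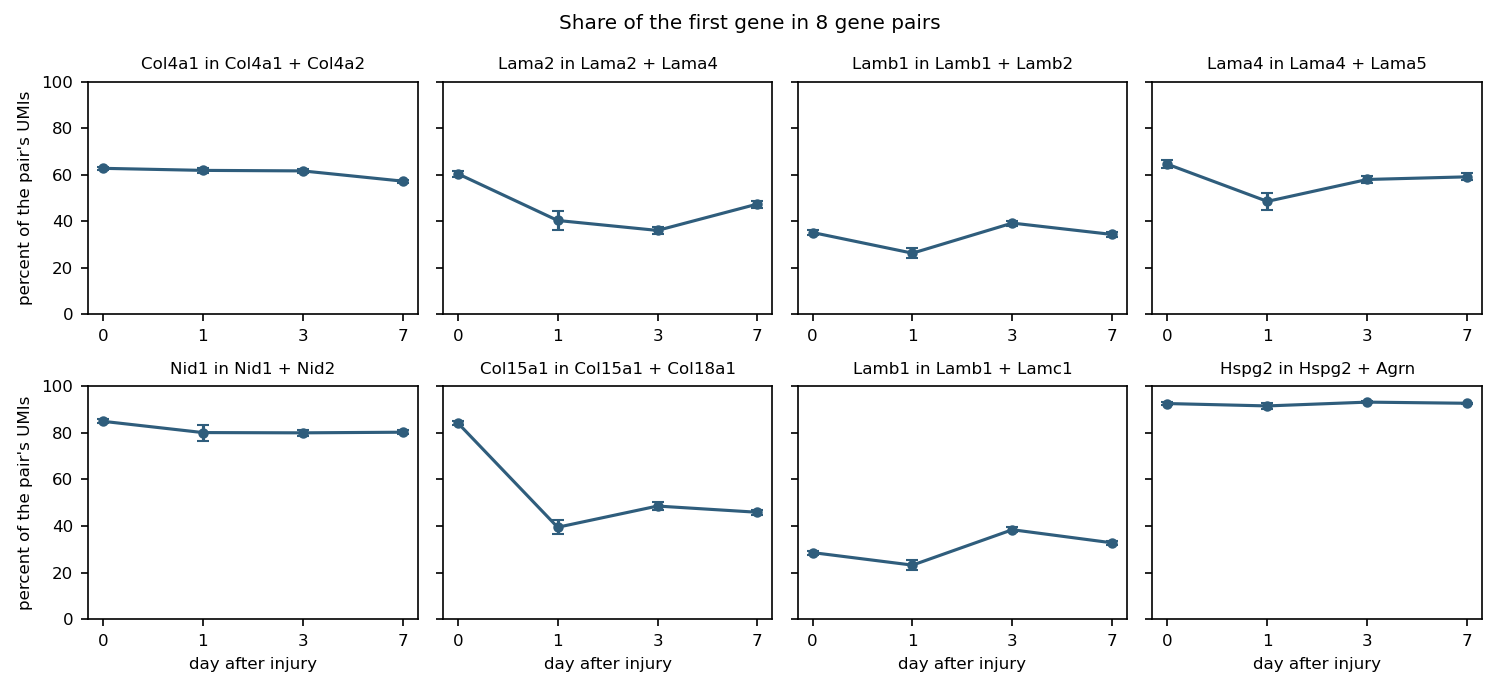
Lines give the share of the first gene in the UMIs of 8 gene pairs (y axis, percent) by day after injury (x axis), with exact 95% binomial intervals. The share of Col15a1 beside Col18a1 was 84.3% at day 0 and 39.5% at day 1, whereas the shares of Hspg2 beside Agrn stayed within 91.6% and 93.2%.

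Other genes of the matrix were counted in lists of related function, to be read beside the shares of all genes tested that were at least 2-fold higher (15.6%, 29.3% and 23.8% on days 1, 3 and 7) or lower (8.11%, 5.22% and 0.951%). Of 14 tested genes of other basement membrane parts, 7 were at least 2-fold lower and 1 at least 2-fold higher at day 1. The counts were 2 lower and 0 higher on day 3, and 0 lower and 5 higher on day 7. Among them Col4a5, another collagen IV chain, measured 12.5, 1.43, 3.24 and 8.49 CPM on the 4 days, with a day 1 log2 ratio of -3.13. Tinagl1, which encodes a basement membrane glycoprotein, had a log2 ratio of -1.08 on day 3 and one of -0.56 on day 7. Smoc1, a calcium-binding basement membrane protein and BMP antagonist, measured 1.23 CPM in uninjured muscle and 16.0 on day 7, a log2 ratio of 3.70.

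The interstitial matrix lies outside the sheet and is built mainly of fibrillar collagens. Of 10 interstitial matrix genes, 9, 0 and 0 were at least 2-fold lower on days 1, 3 and 7, and 0, 2 and 7 were at least 2-fold higher. Col1a1 measured 2253, 214, 1309 and 10600 CPM and Col3a1 2411, 222, 2015 and 3417 CPM, with log2 ratios of -3.39 and -3.44 at day 1. The list had a median log2 ratio of -2.50 at day 1 and 1.73 at day 7, beside -1.27 and 0.09 for the members. Col5a3, a minor fibrillar collagen, was among the smallest at day 7 (-0.44).

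Of 14 enzymes and chaperones that modify and assemble collagen, 4 were at least 2-fold lower at day 1, and 8 at day 3 and 9 at day 7 were at least 2-fold higher. Plod2, a lysyl hydroxylase, had a log2 ratio of 3.84 at day 7. Among 13 genes of matrix remodelling, 5, 5 and 10 were at least 2-fold higher and 3, 0 and 0 lower at days 1, 3 and 7. Timp1, an inhibitor of metalloproteinases, measured 5.04, 140, 318 and 94.2 CPM, and Ctss, a cysteine protease of macrophages, 9.85, 144, 1060 and 111 CPM. Mmp9, a gelatinase that cleaves collagen IV, had a log2 ratio of 1.93 at day 1, and Hpse, the heparanase that cuts the sugar chains of perlecan, one of 3.81 at day 3. Of 9 matrix receptors tested, 1, 2 and 1 were at least 2-fold higher and 1, 1 and 0 lower at days 1, 3 and 7, which is under the shares of all genes tested or within 1 gene of them. Itga1, the collagen-binding integrin chain, measured 44.2, 12.2, 14.0 and 32.7 CPM.

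Basement membrane genes are made by several cell types of muscle, and marker lists of those types moved as well. The 10 endothelial markers summed to 682, 535, 560 and 796 CPM at days 0, 1, 3 and 7, and 3, 4 and 0 of them were at least 2-fold lower than at day 0. The 7 markers of mural cells, which cover vessels, summed to 749, 316, 456 and 911 CPM, with 3, 1 and 0 at least 2-fold lower. The 9 fibroblast markers summed to 1241, 578, 1472 and 2268 CPM, with 5, 0 and 0 of the 8 tested at least 2-fold lower. The 15 adult myofibre markers had 8, 12 and 2 at least 2-fold lower. None of the markers on these 4 lists was at 0 UMIs in any section. Schwann cell markers summed to 224, 151, 130 and 242 CPM and adipocyte markers to 344, 374, 207 and 273 CPM. Both sums, and that of the adult myofibre markers, were lowest at day 3, as collagen IV was. The sums of infiltrating cell markers were instead higher than at day 0 on all injured days. Macrophage markers summed to 420, 1569, 7712 and 2044 CPM, with 10 of 10 at least 2-fold higher at day 3, and neutrophil markers to 1.55, 161, 55.6 and 7.86 CPM. Regenerating muscle markers summed to 130, 107, 958 and 865 CPM. They were lower at day 1, with 4 of 9 at least 2-fold lower and a median log2 ratio of -0.71, and higher at days 3 and 7. The endothelial, mural and fibroblast sums were lowest at day 1, as were most members. The median log2 ratio of the endothelial markers to day 0, unlike their sum, was lower at day 3 (-0.66) than at day 1 (-0.43). Those of the mural and fibroblast markers were lower at day 1 (-0.76 and -1.71) than at day 3 (-0.24 and -0.02). The part of none of these lists in the result was tested.

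Spots rich and poor in muscle RNA were also compared separately. In each section the spots were ranked by the share of adult myofibre UMIs, and the lowest and highest 25% were set against those of day 0. The median shares were 22.2% and 32.3% at day 0, 6.08% and 21.6% at day 1, 1.57% and 21.8% at day 3 and 8.26% and 23.3% at day 7, so the groups are not matched across days. In myofibre-rich spots the day 1 levels lay below day 0 for 9 of 10 genes, with a log2 ratio of -2.57 for Nid1, -2.82 for Col15a1 and -2.01 for Lamb1. In myofibre-poor spots the same ratios were -1.68, -1.77 and -0.83. For Lama2 the day 1 ratio to day 0 was instead lower in myofibre-poor spots (-2.51) than in myofibre-rich ones (-1.53). Its day 3 ratios (-2.05 and -1.19) had the same order. Its levels in these groups were 15.1 and 15.8 CPM at day 1, with overlapping intervals, and the intervals overlapped at day 3 as well. At day 0 its levels were 86.1 and 45.6 CPM. The ratios of Lama4 at day 1 (-0.99 and -0.64) had overlapping intervals. Collagen IV changed its order between days: Col4a1 was at -0.73 in myofibre-poor and -1.22 in myofibre-rich spots at day 1, and at -2.14 and -1 at day 3. Lamb1 at day 3 was, on the CPM scale, at its uninjured level in myofibre-poor spots (0.00, interval -0.11 to 0.12) and below it in myofibre-rich ones (-0.83).

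**Figure D4:**
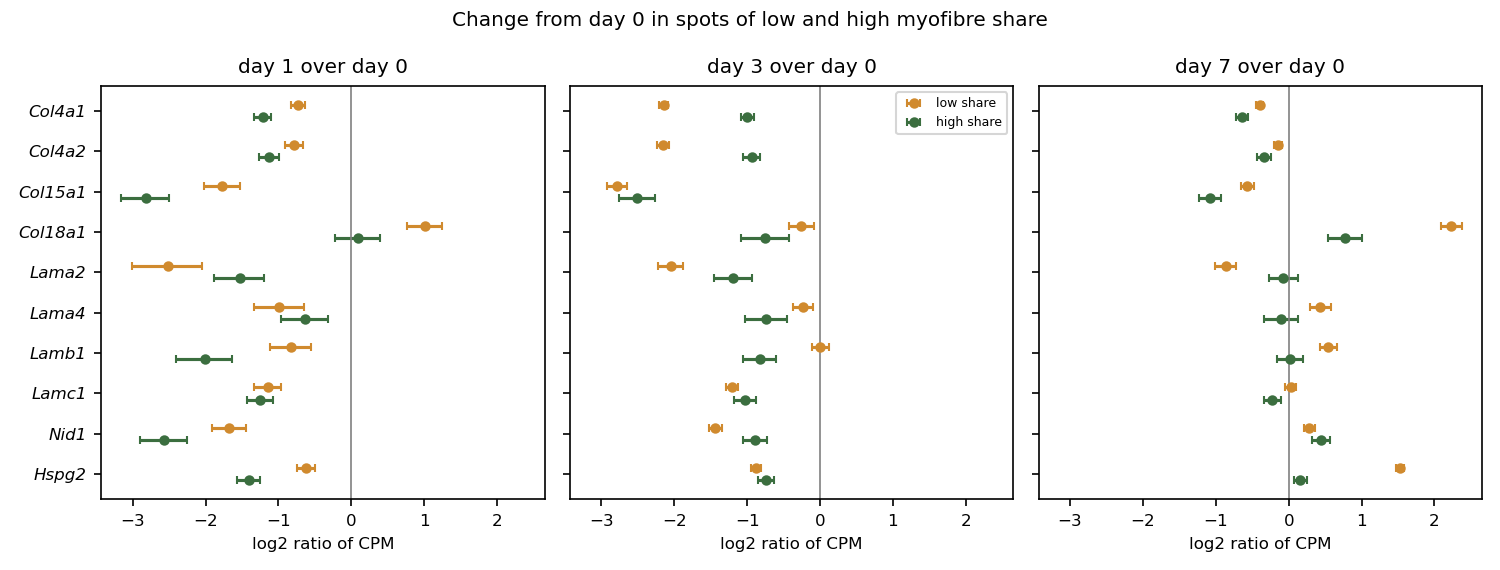
Points give the log2 ratio of CPM to day 0 (x axis) in the 25% of spots with the lowest (low share, orange) and highest (high share, green) share of adult myofibre UMIs of each section, with exact 95% intervals for counting error. At day 7 the 2 groups lay furthest apart for Col18a1 (2.23 and 0.77) and Hspg2 (1.53 and 0.16), and at day 3 the collagen IV genes were lower in the orange group.

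At day 7 the levels of Hspg2 and Col18a1 differed between these groups of spots. In myofibre-poor spots Hspg2 had a log2 ratio of 1.53 to day 0 (1.48 to 1.58), in myofibre-rich spots one of 0.16. For Col18a1 the ratios were 2.23 and 0.77. The ratios of Lama2 had the opposite order, at -0.87 in myofibre-poor spots and -0.07 (-0.27 to 0.12) in myofibre-rich ones. Its day 7 levels there, 47.2 and 43.4 CPM, had overlapping intervals, whereas its day 0 levels were 86.1 and 45.6 CPM.

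To place the genes within the sections, spots were clustered by their expression in each section separately, with the members and all marker and pathway genes left out, which gave 5, 7, 9 and 7 regions at days 0, 1, 3 and 7. A region is named by its leading genes and is no cell type. In uninjured muscle all 10 members were lowest in the region led by Mical2 and Actc1 (744 spots, median 16480 UMIs), and 6 of them were highest in that led by Hp and Cfd, genes of fat tissue (124 spots, 16864.5 UMIs). Highest over lowest region was between 1.76-fold (Lamc1) and 3.39-fold (Col18a1). For Col4a2, Col15a1, Lama4 and Lamb1 the interval of that region overlapped the next one. Col4a1 measured 628 CPM (610 to 647) in the region led by Timp4, Gpihbp1 and Cdh5, of which Cdh5 is endothelial, and 626 CPM (595 to 659) in the Hp region, which cannot be ordered, against 352 CPM in the lowest. Lama2, Lamc1 and Nid1 were highest in the region led by Retnla, Cilp and Pi16, with Nid1 at 215 CPM and 94.3 CPM in the lowest, the intervals of Lama2 and Lamc1 overlapping the Hp region. The leading regions changed with the clustering. At a resolution of 1 only Col4a1 and Lama4 were highest in the region led by Cfd and Hp, and Col4a2, Col15a1, Col18a1, Lama2 and Hspg2 were highest in one led by Col22a1, Chad and Fmod. With the sections clustered together day 0 had only 2 regions of at least 20 spots, 1 of 46 spots led by Hp and Cfd and 1 of 2057 spots. Every member but Lama2 was then highest in the Hp and Cfd region, so this compares a small patch with nearly the whole section.

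At day 1 a small region of 56 spots, led by Cytl1, Cnn1 and P2rx1, had the highest value of 9 of the 10 genes, Lama2 being the exception. Its intervals were clear of all other regions for Col4a2, Col18a1, Lama4 and Hspg2. Those of Col4a1, Col15a1, Lamb1, Lamc1 and Nid1 overlapped others, and Lamb1, at 38.3 CPM on 12 UMIs, was tied with 38.0 CPM in the region led by Cyp2e1 and Inmt. Cnn1 encodes a calponin of smooth muscle. There Col18a1 measured 367 CPM (303 to 440), against 24.3 to 49.3 CPM in the other regions, and Hspg2 488 CPM against 68.7 in the lowest. Those 56 spots, 2.10% of the section, held 16.8% of the Col18a1 UMIs. The summed Schwann cell, mural, adipocyte, endothelial, osteogenic and fibroblast markers were 22.1, 11.2, 3.59, 3.53, 2.89 and 2.49 times their section level in that region. Without it Col18a1 at day 1 had a log2 ratio of 0.21 to day 0 in place of 0.45. At day 3 a region of 55 spots led by Cytl1, Cnn1 and Myh11 had mural and endothelial markers at 6.94 and 3.43 times the section level. It again had the highest Col18a1, 189 CPM (163 to 217) against 13.8 to 39.6 CPM elsewhere. These levels depend on the clustering. At a resolution of 1 the highest Col18a1 level was 251 CPM at day 1 and 118 CPM at day 3. Those regions were led by Cytl1 and by Myh11. With the sections clustered together it was 81.9 and 34.2 CPM, in regions led by Pck1 (32 spots) and by Hp (33 spots). Raw shares of spots with a Col18a1 UMI were 75% in the day 1 region (median 5274.5 UMIs per spot) and 17.2% in the region with the lowest level (8395 UMIs).

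At day 3 the regions of Col4a1 and Lamb1 differed. Col4a1 was lowest, at 137 CPM, in the region led by Thbs2, Cthrc1 and Mest (452 spots), and highest, at 473 CPM (420 to 531), in 74 spots led by Cfd and Hp, where Lama4 and Lamc1 were also highest, at 85.7 and 143 CPM. In those spots adipocyte, chondrogenic, tendon, fibroblast, Schwann cell and endothelial markers were at 59.6, 14.7, 4.36, 2.88, 2.76 and 2.11 times the section level. The region led by Cytl1 and Cnn1, at 415 CPM of Col4a1 (376 to 456), overlapped it. Lamb1 was highest in the Thbs2 region, at 82.4 CPM (77.6 to 87.4, overlapping the 69.7 to 82.2 of the region led by Spp1 and Rsad2), and lowest, at 29.0 CPM, in the region led by Igha and Igkc. In the Thbs2 region regenerating muscle markers were at 1.87 times, macrophage markers at 1.72 times, adult myofibre markers at 0.240 times and endothelial markers at 0.833 times the section level. Their part in these levels was not tested. With the sections clustered together day 3 had 3 regions of at least 20 spots. Lamb1 was then highest in the region led by Hp and Wfdc21 (33 spots), as were collagen IV, Lama4 and Lamc1.

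At day 7 Hspg2 was highest in the region led by Col9a1, Col2a1 and Col9a3, collagens of cartilage (276 spots). It measured 1605 CPM there (1566 to 1645), 754 in the region led by Megf6 and Fads2, between 350 and 507 in the other 4 regions outside the lowest, and 182 (173 to 191) in the region led by mt-Atp8 and Ckmt2. The cartilage collagen region held 9.10% of the spots and 28.6% of the Hspg2 UMIs. Without it the section had 424 CPM of Hspg2, 1.61-fold the uninjured level in place of 2.04-fold. The 14 chondrogenic markers summed to 14296 CPM in that region and to 12.5, 42.4, 58.1 and 2426 CPM in the 4 whole sections, with 2, 5, 3 and 0 of them at 0 UMIs. Osteogenic, tendon and fibroblast markers were at 5.55, 2.36 and 1.86 times the section level in that region and adult myofibre markers at 0.228 times. The part of these lists in the Hspg2 level was not tested. Shares of spots with an Hspg2 UMI were 99.3% there (median 12090.5 UMIs) and 73.5% in the lowest region (8511.5 UMIs).

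The ratio of that region to the lowest one was 8.82-fold for Hspg2, close to it for Col18a1 (8.33-fold) and smaller for the other members. At a resolution of 1, highest over lowest region was 13.8-fold for Col18a1 and 11.3-fold for Hspg2. Col18a1 reached 200 CPM in the cartilage collagen region (186 to 214), against 23.9 in the lowest, Lama4 82.2 CPM against 18.3 and Lamb1 120 CPM against 36.0. Lama2, the muscle fibre chain, was lowest there of all regions at day 7, at 30.2 CPM (25.02 to 36.0, overlapping the 34.3 to 42.6 of the mt-Atp8 region), and highest, at 62.8 CPM, in the region led by Sln, Myh8 (the perinatal myosin) and Dlk1 (573 spots, regenerating markers at 1.99 times the section level). Col4a1, Col4a2, Col15a1, Lamc1 and Nid1 had their highest values in the region led by Cfd, Cyp2e1 and Nnat (361 spots), but only that of Col4a2, 387 CPM (368 to 407), was clear of the intervals of all other regions. There adipocyte and Schwann cell markers were at 6.20 and 4.88 times the section level. With the sections clustered together Col4a1, Col4a2 and Col15a1 were highest in the Col9a1 region and Lamc1 and Nid1 in a Myh8 region. At a resolution of 1 Col18a1, Lama4 and Lamb1 were highest in a region led by Lrrc15 and Aspn. Hspg2 was highest in a region led by cartilage collagens under both, at 1812 CPM with a resolution of 1 and 1651 CPM in the joint clustering. With 1 section a day, a region of a section cannot be told apart from the tissue that happened to be cut.

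**Figure D5:**
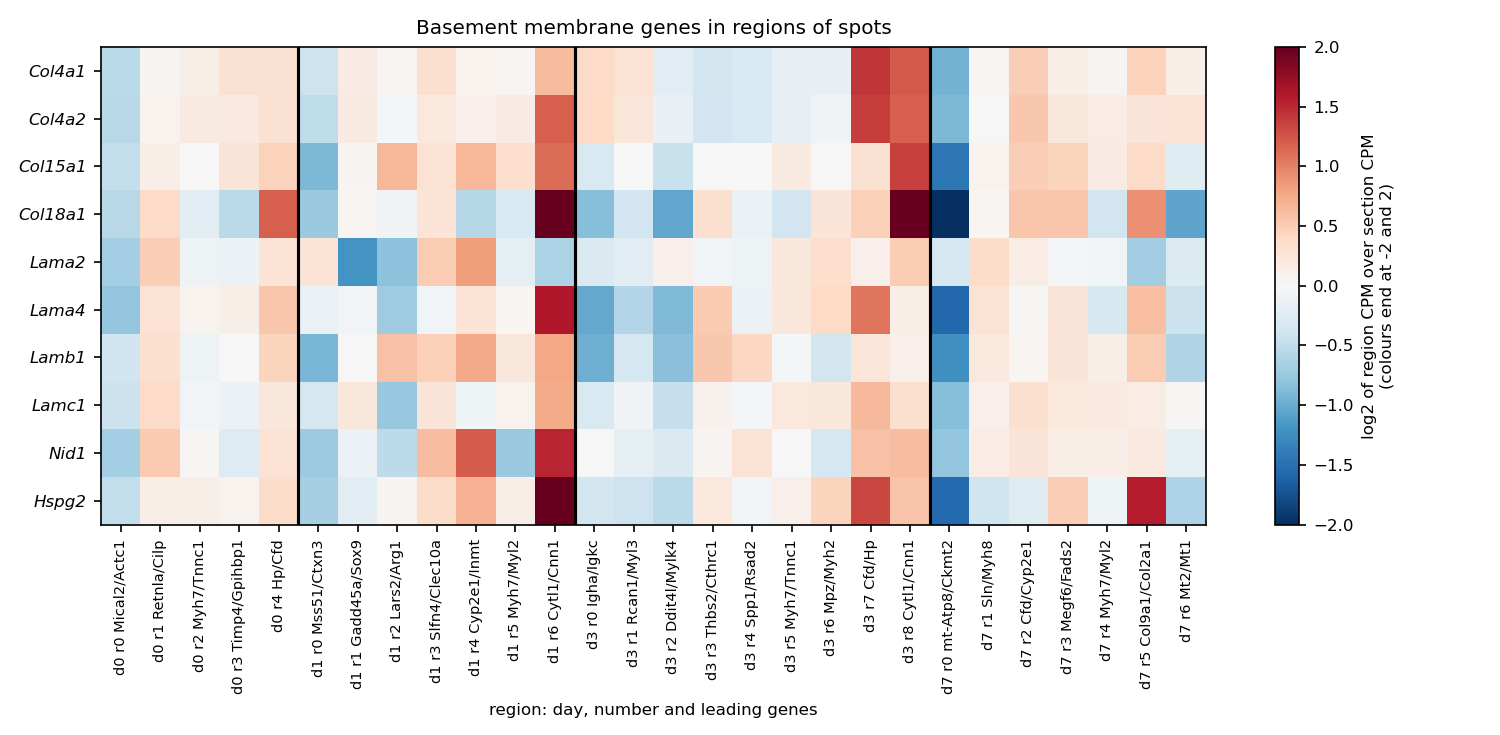
Colours give the log2 of each gene's CPM in a region over its CPM in the whole section (red higher, blue lower, colours end at -2 and 2), for the 28 regions on the x axis, named by day (d), region number (r) and their first leading genes, with black lines between days. All 10 genes were above their section level in the Retnla and Hp regions of day 0 and in the Cfd and Cytl1 regions of day 3, 9 of 10 were in the Cytl1 region of day 1, Hspg2 was high in the Col9a1 region of day 7, and the mt-Atp8 region of day 7 was low for all 10 genes.

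To compare single spots at 1 depth, each was thinned to 2000 UMIs (17, 513, 9 and 84 shallower spots were left out on days 0, 1, 3 and 7), and a Col4a1 UMI was seen in 60.2%, 33.5%, 29.5% and 44.98% of spots. For Hspg2 the shares were 39.3%, 19.3%, 26.3% and 54.8%, and for Lama2 12.3%, 2.51%, 4.30% and 8.68%. Unthinned, the shares were 97.5%, 59.9%, 85.8% and 86.8% for Col4a1, 91.6%, 39.9%, 81.0% and 89.5% for Hspg2 and 62.6%, 7.42%, 30.01% and 38.98% for Lama2. After thinning, the order of the days was that of the CPM for each of the 3 genes. The variance of the thinned count over its mean is 1 for random sampling of an evenly spread RNA. It was 1.82 for Hspg2 at day 7 and between 1.02 and 1.48 for every other member and day. With more UMIs kept in the same spots this ratio is larger (2.70 for Hspg2 at day 7 at 4000 UMIs). It rises with the mean count, so it does not rank members of different levels by unevenness.

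Across spots the summed members went with the fibroblast markers, at a Spearman rho of 0.22, 0.27, 0.20 and 0.41 at days 0, 1, 3 and 7, and against the adult myofibre markers, at -0.30, -0.28, -0.12 and -0.51. These are descriptions over 2090 to 3020 spots that share a library, and the fixed depth itself sets myofibre and other UMIs against each other. With the myofibre share held constant the rho with fibroblast markers was 0.14, 0.24, 0.18 and 0.20. Hspg2 at day 7 had a rho of 0.40 with the chondrogenic markers, or 0.23 with the myofibre share held constant, and one of 0.02 at day 0. Between members the highest of 45 rho values in a section was 0.16, too weak in such sparse counts to describe as a pattern.

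Over the 28 regions of all sections the members were correlated to different degrees. The Pearson r of log2(CPM + 1) between 2 members lay between 0.07 (Col18a1 and Lama2) and 0.97 (Col4a1 and Col4a2), with a median of 0.72 over 45 pairs. The regions share libraries by day, so these values are descriptions. Of 5699 genes with at least 20 CPM on average, Col4a2 was the most like Col4a1, followed by Col15a1 (0.88) and Ehd2 (0.87), a membrane ATPase of caveolae, which was also next to Col4a1 for Col4a2 (0.92). Those most like Col15a1 were Itga1 (0.90), Cdh5, the cadherin of endothelial junctions (0.89), and Col4a1. Nid1 went with Igfbp5 (0.94), Nid2 (0.94) and Laptm4a (0.93), and Lamc1 with Meg3 (0.93), Nid1 (0.89) and Cd34 (0.89).

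Hspg2 was most like Ptprs, a receptor phosphatase that binds heparan sulfate (0.96), Sparc, a collagen-binding matrix protein (0.95), and Fads2 (0.94). Col18a1 was most like Mfge8 (0.93), Marveld1 (0.91) and Eva1b (0.89), and Lamb1 like Myadm (0.90), Ecm2 (0.90) and Col3a1 (0.90). Lama4 went with Cd81 (0.91), Mprip (0.90) and Ddah2 (0.90), and Lama2 with Trim35 (0.91), Itih5 (0.88) and Skp1a (0.88).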

How the data were processed

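The authors deposited UMI counts, 1 table a section with genes as features and spots as barcodes, not normalized. The table headers give the software as spaceranger 1.2.0, whereas other versions stand in the labels and in the published methods, and the submitters' processing notes list the build mm10. Whether counting used strand is not given in the sources used here, so any UMIs in the overlap of Col4a1 and Col4a2 are uncertain. That overlap lies at the starts of both genes, whereas the UMIs come from the 3′ ends. All 10835 deposited spots were used, no doublet caller or deconvolution was run, and images and spot positions were not used.

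The members and all gene lists were chosen with earlier results of these data known. UMIs were summed per section, scaled to CPM and given exact Poisson intervals (95%). Ratios to day 0 had conditional binomial intervals, shares of a pair Clopper-Pearson intervals, and sums under 3 UMIs were entered at 3. "Tested" genes are the 10199 with a mean of at least 5 CPM, and a call is a ratio of at least 2-fold, with no p-value. All 198 genes of the lists were found. Spots were thinned to 2000 UMIs in 20 draws. Regions came from Leiden clustering (Scanpy 1.11.5, leidenalg 0.10.2) on 2000 variable genes, 30 components and 15 neighbours at a resolution of 0.5. The scalings tried as alternatives were TMM (edgeR 4.0.16), size factors (DESeq2 1.42.0), and totals without mitochondrial, haemoglobin and adult myofibre genes. Beside the members, the text names the 3 largest and 3 smallest ratios of the pathway lists on each day, pair partners, leading genes of regions and the 3 genes most like each member among those with a mean of at least 20 CPM. On simulated sections with counting error only, 96% to 100% of the genes changed 2.5-fold or more in either direction were past 2-fold. Of 9999 unchanged genes 0 were. The simulation held no spread between animals or pieces of tissue, so it does not measure false calls between single sections. Promoter sequences and gene spans came from RefSeq.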

Additional observations from a re-analysis of the deposited data

How the results depend on the processing

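Rescaling the sections shifted every log2 ratio of a day by the same amount, by -0.21, -0.55 and -0.61 on days 1, 3 and 7 with TMM, by -0.19, -0.56 and -0.63 with DESeq2 size factors and by -0.19, -0.43 and -0.29 with totals that left out mitochondrial, haemoglobin and adult myofibre genes. The members' median log2 ratio was then -1.48, -1.47 and -1.46 in that order of scalings on day 1, -1.61, -1.62 and -1.48 on day 3, and below 0 on day 7, at -0.52, -0.54 and -0.20. On day 7 the number of members at least 2-fold higher was 1 under each of these scalings, Col18a1 remaining, and the number at least 2-fold lower was 3, 3 and 1. With a threshold of 1.5-fold 1 member was lower on day 7. On day 3 the number at least 2-fold lower was 7 under each scaling, in place of 5. The share of all genes tested past the threshold was not computed under these scalings or at 1.5-fold. These counts therefore cannot be set beside such a share. The sign turned on day 7 for Lama4 (-0.35, -0.38 and -0.036), Lamb1 (-0.37, -0.40 and -0.060) and, with TMM and DESeq2, Nid1 (-0.25 and -0.28).

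Leaving out each region of an injured section in turn was chosen after seeing the data. Without the Mss51 region 6 members were at least 2-fold lower on day 1, in place of 9. Without the Col9a1 region or without the Megf6 region, 1 member was at least 2-fold higher on day 7, since Hspg2 was at 1.61-fold and 1.89-fold. The share of all genes tested was not computed with a region left out, so these counts cannot be set beside one. Without the mt-Atp8 region the log2 ratio of Lamc1 on day 7 turned to 0.11. The weak rho of the summed members with macrophage markers turned to -0.087 on day 1 and -0.064 on day 3 with the myofibre share held constant. Of the values that answer a comparison, 70 stayed under an alternative within their counting interval or, for a count, within 1.5 times, 15 moved further and 3 changed sign. The others were 355, 392 and 11, the moved ones including levels under other clusterings, which also changed the leading region of several members. Among the values that answer a comparison, each of the 3 other scalings moved 2 of the members' medians and changed the sign of 1. Those that stayed include counts with a region left out, among them the day 1 count of 6 in place of 9. No paired analysis was possible because each day had 1 section, and no replicate could be left out for the same reason. Depth limits the day 1 values most, above all Lama2 with 249 UMIs.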
